A study of Macaca mulatta with 20 samples.

Results

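Transcripts of 55 genes of the immediate early response and of the dual specificity phosphatases were followed in the corpus luteum of the rhesus macaque (Macaca mulatta) during simulated early pregnancy. The rule that defines the genes uses symbols only. A probe set entered if its only symbol in the platform annotation began with FOS or JUN, or with EGR, ATF, KLF, IER, DUSP or NR4A and a digit. The rule found 111 probe sets among the 24956 that carry 1 symbol, and for each gene the probe set with the highest mean log2 signal over all arrays was used. This left 55 of the 14132 named genes on the array, of which 28 had a single probe set. They comprise 4 AP-1 genes (FOS, FOSL2, JUNB and JUND), 2 EGR genes, 2 NR4A genes, 3 IER genes, 7 ATF genes, 15 KLF genes, 7 MAP kinase phosphatase genes and 13 genes of other dual specificity phosphatases. The remaining 2, ATF7IP and ATF7IP2, match the rule by their letters only and encode partners of an ATF protein. JUN, FOSB, EGR1, EGR3, NR4A3, IER3, DUSP2, DUSP6 and KLF9 were not analysed here.

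The series holds 20 arrays in 5 groups of 4, the labels counting 4 glands per group. A corpus luteum is what an ovarian follicle becomes after ovulation, and its main product is progesterone. Treated females received human chorionic gonadotropin (hCG), the luteotropic hormone of early pregnancy, by intramuscular injections repeated each day from luteal day 9 onwards. The dose was raised from 15 IU at the start to 2880 IU at the end. Treated glands were removed on luteal day 10 (1 day of hCG), day 12 (3 days), day 15 (6 days) or day 18 (9 days), and the fifth group was taken from untreated females on luteal day 10. That group is the only one without hCG, so treatment length, dose and luteal age rise together from day 10 to day 18 and cannot be told apart. All 4 contrasts against it share its 4 arrays. RNA came from gland tissue with all its cell types, so fewer cells of a type and less RNA per cell cannot be told apart either.

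Immediate early genes are transcribed within minutes of a stimulus without new protein synthesis. In luteal and granulosa cells the LH receptor, which binds both LH and hCG, raises cyclic AMP, and the MAP kinase pathway and the transcription factor CREB are known routes from there to FOS, EGR and NR4A genes. MAP kinase phosphatases are dual specificity phosphatases that remove phosphate from threonine and tyrosine of ERK, p38 or JNK, and many of their genes are themselves induced by the kinase they switch off. Krüppel-like factors (KLF) are zinc finger proteins that bind GC-rich promoters, and several of them belong to the early response of endothelial and epithelial cells.

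The values are linear fluorescence signals with nearly the same trimmed mean on every array, and the tests were made on the log2 of signal + 16. Per-array median signals were 31.6 to 46.4, and 28.7% to 36.5% of probe sets lay under 16. In 16 two-sided exact permutation tests of array quality against untreated, the smallest p was 0.057 (adjusted p = 0.23, smallest possible p 0.029). The luteal markers STAR (11282 to 23031) and HSD3B2 (1742 to 11335) were bright on every array. Untreated replicate 2 stood apart from its group along principal component 3 (8.4% of the variance). So did the first array of hCG day 12 and the second of hCG day 15. DUSP5, DUSP21 and KLF11 were each highest, and DUSP11 and DUSP28 lowest, of their group on all 3 of these arrays. In the same order, the 3 arrays had LUM signals of 602, 558 and 1657, with at most 152 on any other array. Their ISG15 signals were 1177, 1005 and 877, with at most 664 on any other array. The part of what sets these arrays apart in the member values was not tested. Centring each array on its median raised the median change of all probe sets from -0.05 to 0.07 on day 10, from -0.06 to 0.08 on day 12 and from -0.05 to 0.06 on day 15, so small changes have no settled sign there.

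In the test across all 5 groups, 5 of the 55 genes (9.09%) passed at an adjusted p under 0.05, limma's moderated F with Benjamini-Hochberg adjustment over 52707 probe sets. All 5 encode dual specificity phosphatases: DUSP8 (adjusted p = 8.2e-04), DUSP16 (0.0023), DUSP10 (0.013), DUSP21 (0.014) and DUSP14 (0.015). Of all probe sets tested, 4.52% passed, and of single probe sets per named gene 7.01%, to which the members' share is close. NR4A1 (adjusted p = 0.053), KLF15 (0.056) and IER2 (0.063) followed just outside the threshold. Without untreated replicate 2 or 4 the adjusted p of DUSP10 was 0.057 or 0.056, and without hCG day 18 replicate 3 or 4 that of DUSP14 was 0.055 or 0.058. DUSP10 was also lost without the 3 arrays apart (0.072) and on median-centred arrays (0.053). With the mean over the probe sets of a gene, DUSP16 did not pass (0.15), and IER2, KLF2 and ATF7IP did.

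Pairwise, 12 of the 55 genes passed in at least 1 comparison, and the share of all probe sets that did so was not counted. Against untreated glands, 2 members were higher and 0 lower on day 10, where 0.954% of all probe sets passed (0.651% higher, 0.304% lower). On day 12, 1 member was higher and 0 lower, against 0.288% of probe sets (0.157% higher, 0.131% lower). On day 15, 1 was higher and 1 lower, against 1.29% (0.619% higher, 0.674% lower). On day 18, 1 was higher and 6 lower, 12.7% of the members, against 3.90% of probe sets (1.87% higher, 2.02% lower) and 6.09% of single probe sets per named gene. From hCG day 10 to hCG day 18, 2 members were higher and 4 lower, 10.9% of the members, against 5.21% of probe sets (2.25% higher, 2.95% lower). On days 10, 12 and 15 against untreated the members' shares were 3.64%, 1.82% and 3.64%. The shares of single probe sets per named gene are not given here for these comparisons. At an unadjusted p under 0.05 there were 18, 10, 8 and 15 members on days 10, 12, 15 and 18 against untreated, or 32.7%, 18.2%, 14.5% and 27.3%, where 12.4%, 10.6%, 11.9% and 15.6% of all probe sets lay under it. The unadjusted shares of single probe sets per named gene were not counted. The steps from day 10 to 12, 12 to 15 and 15 to 18 gave 0 calls among the members in limma, with 7, 1 and 4 members at an unadjusted p under 0.05. In these steps 0.518%, 0% and 0% of all probe sets passed, and 8.28%, 5.13% and 7.0% had an unadjusted p under 0.05. The median change over all members was small on every day, -0.08, -0.05, -0.12 and -0.05 on days 10, 12, 15 and 18 against medians of -0.05, -0.06, -0.05 and -0.03 over all probe sets.

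**Figure D1:**
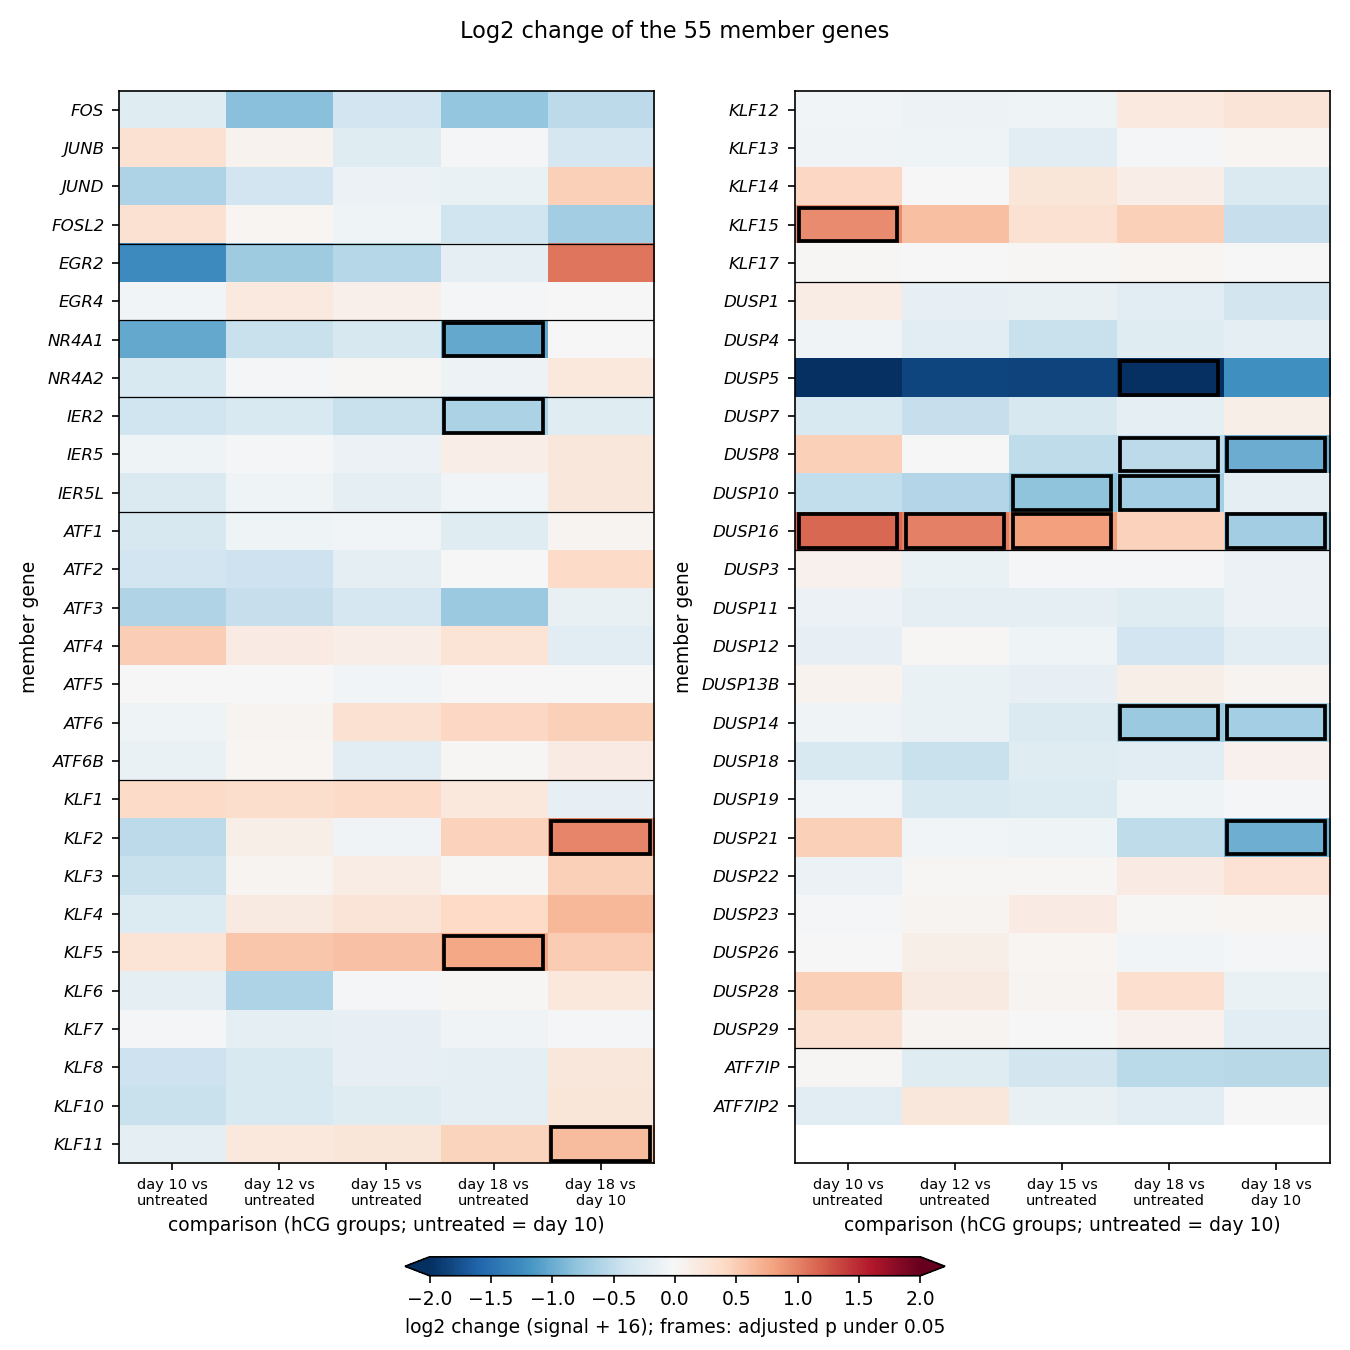
Log2 change of each of the 55 member genes (rows) in 5 comparisons (columns), with red for higher and blue for lower and the colour scale ending at 2 in either direction. Black frames mark an adjusted p under 0.05. DUSP16 is framed on days 10, 12 and 15, the framed cells of day 18 against untreated are mostly blue, and the DUSP5 row is the darkest of all.

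Among the 6 AP-1 and EGR genes, which encode the classical early transcription factors, limma gave 0 calls in any comparison. Of their 24 contrasts against untreated, 1 had an unadjusted p under 0.05 (EGR2 on day 10, where 12.4% of all probe sets did). FOS encodes the AP-1 subunit that pairs with JUN proteins. Its signals were 624, 139, 107 and 284 in untreated glands, 271, 106, 268 and 166 on hCG day 10, 136, 135, 93.3 and 129 on day 12, 834, 103, 87.5 and 105 on day 15, and 217, 102, 170 and 68.4 on day 18. The 2 high values, untreated replicate 1 and hCG day 15 replicate 1, lay far above the rest and all groups overlapped. The day 18 change of FOS was -0.77 ± 0.58 (SE; 95% interval -1.98 to 0.44, adjusted p = 0.61). JUNB, an AP-1 subunit, had means of 206, 253, 215, 170 and 200 from untreated to hCG day 18, with changes between -0.25 and 0.30. FOSL2 had means of 691, 831, 710, 641 and 509. FOSL2 arrays of day 18 (443 to 661) all lay below those of hCG day 10 (739 to 995), with a change of -0.70 ± 0.23 that missed the threshold (adjusted p = 0.085). JUND had means of 103, 65.9, 82.4, 91.7 and 91.6, with its largest change on day 10 (-0.61 ± 0.33, adjusted p = 0.48).

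EGR2 encodes a zinc finger factor. Its signals were 209, 91.1, 62.3 and 114 in untreated glands and 43.8, 30.3, 40.6 and 30.4 on hCG day 10, with no overlap between the groups. They were 73.8, 44.9, 74.3 and 53 on day 12, 232, 103, 8.31 and 53.8 on day 15, and 140, 67.9, 156 and 46.8 on day 18. The day 10 difference was -1.27 ± 0.50 (adjusted p = 0.29), and day 18 differed from hCG day 10 by 1.07 ± 0.50 (adjusted p = 0.27), again without overlap. Neither passed, since the spread of EGR2 within groups (residual SD 0.78 on the log2 scale) was among the widest of the members, whose median was 0.26. A second EGR2 probe set was dim (median signal 2.43), with a day 10 change of 0.00 ± 0.11, and EGR4 was under 16 on average in every group.

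NR4A1 encodes an orphan nuclear receptor, an early target of LH receptor and cyclic AMP signalling in steroid-producing cells. Its signals were 486, 336, 270 and 528 in untreated glands, 146, 174, 214 and 206 on hCG day 10, 275, 227, 288 and 354 on day 12, 484, 202, 286 and 328 on day 15, and 205, 254, 195 and 114 on day 18. Glands of hCG days 10 and 18 lay wholly below the untreated ones, and those of days 12 and 15 overlapped with them. On day 18 NR4A1 was 2.03-fold lower (log2 change -1.02 ± 0.26, adjusted p = 0.03) and passed. On day 10 the difference was as large (-1.03 ± 0.26) but did not pass (adjusted p = 0.066). The step from day 10 to day 12 measured 0.58 ± 0.26 (adjusted p = 0.54) and that from day 15 to day 18 -0.70 ± 0.26 (adjusted p = 0.58). The other NR4A1 probe set gave -1.16 ± 0.34 on day 10 (adjusted p = 0.13) and -1.07 ± 0.34 on day 18 (0.093). Without untreated replicate 1 or 4, or hCG day 18 replicate 1, 3 or 4, the day 18 adjusted p was 0.092, 0.098, 0.05, 0.06 and 0.11, and median-centred arrays gave 0.051. Without untreated replicate 3, hCG day 15 replicate 1 or 2, or hCG day 18 replicate 4, the day 10 difference passed, with adjusted p from 0.046 to 0.049. NR4A2, its close relative, had means of 1449, 1151, 1432, 1447 and 1339 and did not pass on any day (largest change -0.31 ± 0.18 on day 10, adjusted p = 0.51).

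IER2, an immediate early gene whose product acts in the nucleus, fell on day 18. Its signals were 1352, 918, 856 and 1057 in untreated glands, 765, 726, 866 and 755 on hCG day 10, 981, 697, 801 and 846 on day 12, 753, 701, 725 and 827 on day 15, and 707, 678, 668 and 569 on day 18. The untreated group was highest, and the day 15 and day 18 groups did not overlap with it. The log2 changes were -0.40 ± 0.14, -0.31 ± 0.14, -0.45 ± 0.14 and -0.64 ± 0.14 on days 10, 12, 15 and 18, with adjusted p of 0.21, 0.43, 0.14 and 0.01. Only the last passed, a 1.56-fold lower level. It also passed in each of the 20 fits that left out 1 array, and a fit of the 8 compared arrays alone gave an adjusted p of 0.066. IER5 (means 1155, 1088, 1120, 1063 and 1276), another early gene, did not pass on any day.

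**Figure D2:**
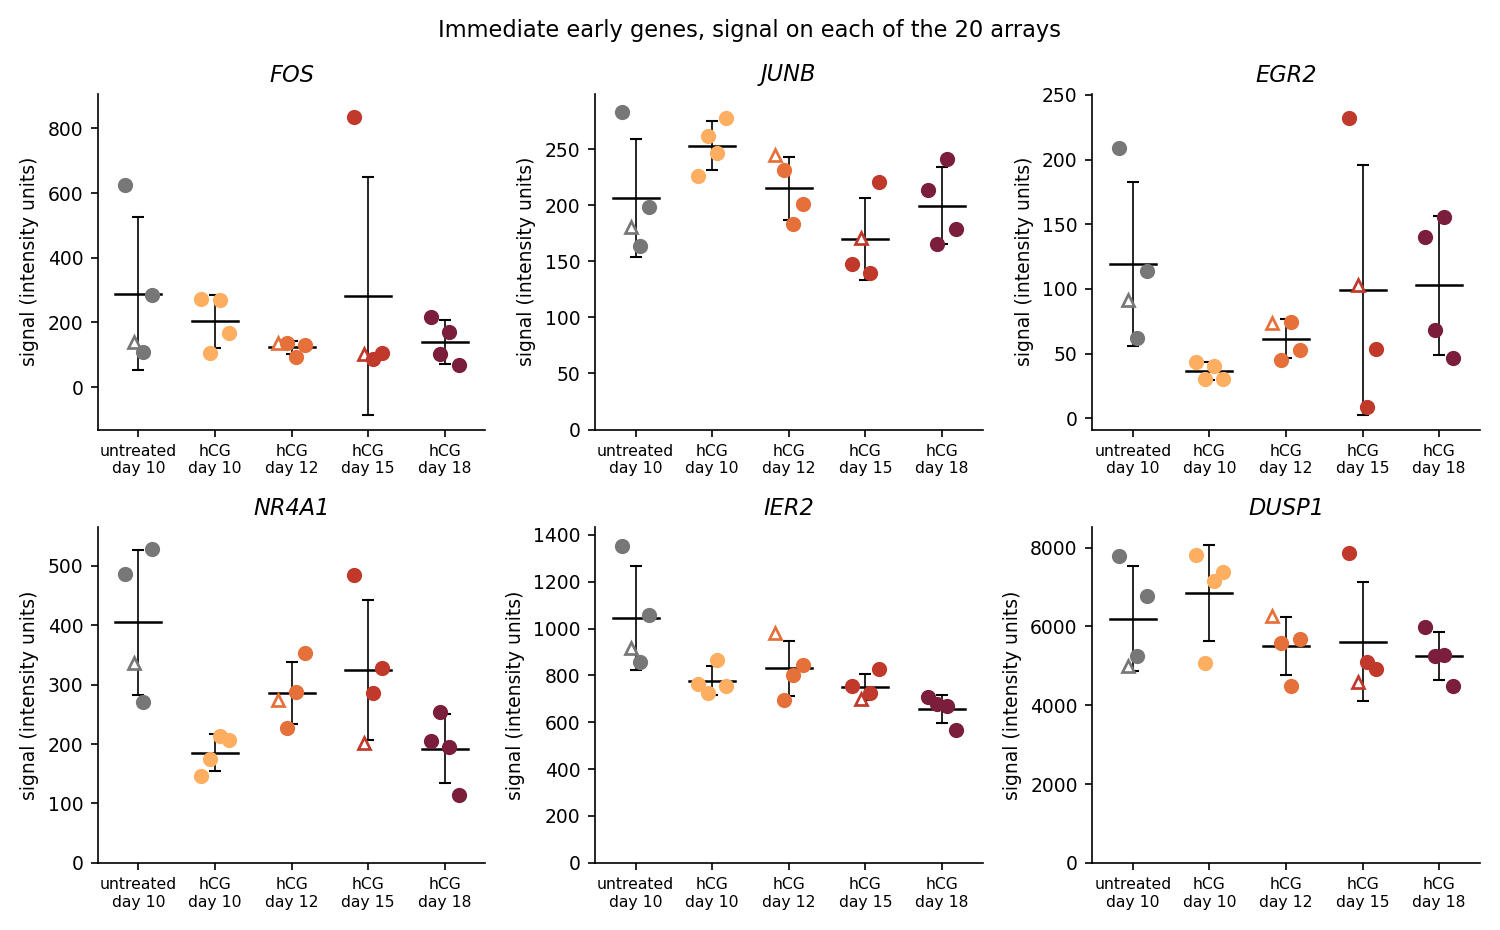
Signal (intensity units, linear axis) of FOS, JUNB, EGR2, NR4A1, IER2 and DUSP1 on each of the 20 arrays, with the group mean as a horizontal bar and the SD over 4 arrays as the vertical bar. Open triangles mark the 3 arrays apart on principal component 3. NR4A1 is low on hCG days 10 and 18, IER2 is lowest on day 18, and single high arrays set the means of FOS on day 15 and in untreated glands.

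These early genes shared their high arrays in part. Untreated replicate 1 and hCG day 15 replicate 1 were the 2 highest of 20 arrays for both FOS (624 and 834) and EGR2 (209 and 232). For DUSP1 they held ranks 1 and 3 of 20 (7857 on day 15 and 7790 untreated), and for NR4A1 ranks 2 and 3 (486 untreated and 484 on day 15). JUNB and IER2 were also highest in untreated replicate 1, but hCG day 15 replicate 1 held rank 19 for JUNB and rank 12 for IER2. Other differences between these 2 glands and the rest were not tested.

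Of the 7 ATF genes, 0 passed in limma, with an unadjusted p under 0.05 in 7 of their 28 contrasts against untreated, against 10.6% to 15.6% of all probe sets on the 4 days. ATF3, a stress-induced early gene, had signals of 150, 173, 133 and 94.4 in untreated glands and 83.8, 82.9, 94.3 and 43.8 on hCG day 18, just short of an overlap. The difference was -0.75 ± 0.24 with an adjusted p of 0.093, and of 0.045 without hCG day 15 replicate 4. In the remaining groups its means were 84.7, 94.2 and 109 on hCG days 10, 12 and 15. ATF4, the main effector of the integrated stress response, had signals of 3132, 3414, 2446 and 3342 in untreated glands and 4180, 4012, 5507 and 3698 on hCG day 10, with no overlap. That difference was 0.49 ± 0.20 (adjusted p = 0.32), and the means of days 12, 15 and 18 (3464, 3391 and 3805) lay between 3083 in untreated glands and 4349 on day 10.

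Of the 15 KLF genes, KLF15 passed on day 10, KLF5 on day 18, and KLF2 and KLF11 between hCG days 10 and 18, each with higher levels. KLF15 encodes a glucocorticoid-responsive factor of glucose and lipid metabolism. Its signals were 146, 184, 117 and 249 in untreated glands, 254, 348, 382 and 377 on hCG day 10, 304, 277, 273 and 208 on day 12, 269, 233, 217 and 145 on day 15, and 232, 250, 245 and 235 on day 18. Day 10 lay wholly above untreated, narrowly so for 254 against 249. KLF15 was 1.92-fold higher there (0.94 ± 0.20, adjusted p = 0.029), and the changes of the later days, 0.60, 0.30 and 0.48, did not pass. The call was lost without untreated replicate 1, 2 or 3 or hCG day 10 replicate 2, 3 or 4 (adjusted p from 0.058 to 0.11, changes from 0.78 to 0.98). Without the 3 arrays apart it was 0.98 with an adjusted p of 0.073. Its other probe set was dim (median 8.91) and stood at -0.10 ± 0.18, and the mean over both gave 0.42 (adjusted p = 0.19).

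KLF2, the flow-induced factor of endothelium that is also expressed in resting leukocytes, was lowest on hCG day 10 and highest on day 18. Its signals were 378, 326, 204 and 438 in untreated glands, 166, 230, 230 and 274 on hCG day 10, 293, 314, 396 and 426 on day 12, 230, 255, 385 and 395 on day 15, and 562, 564, 323 and 402 on day 18. All day 12 and all day 18 values lay above the hCG day 10 values, and untreated values overlapped with both. Between hCG days 10 and 18 it rose 1.97-fold (0.97 ± 0.24, adjusted p = 0.02), and the second probe set gave 0.53 ± 0.16 (adjusted p = 0.055). Without hCG day 10 replicate 1 or hCG day 18 replicate 1 or 2 its adjusted p was 0.069, 0.073 and 0.063. KLF4, a factor of endothelium and monocytes, had means of 856, 676, 941, 981 and 1092. Its difference between hCG days 10 and 18 was 0.67 ± 0.24, with no overlap, and did not pass (adjusted p = 0.12).

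KLF11, a TGF-beta-induced repressor, followed with signals of 246, 225, 279 and 305 on hCG day 10 against 366, 495, 360 and 453 on day 18. Untreated glands, at 337, 365, 248 and 272, overlapped with both. It rose 1.55-fold between hCG days 10 and 18 (0.63 ± 0.17, adjusted p = 0.032), while its 3 other probe sets gave 0.20 ± 0.17, 0.46 ± 0.18 and 0.26 ± 0.21 and did not pass there. One of them passed on day 18 against untreated (0.71 ± 0.18, adjusted p = 0.033), where the probe set used here gave 0.44 ± 0.17 (0.18). The call was lost without hCG day 10 replicate 1, 2 or 3 or hCG day 18 replicate 2 or 4 (adjusted p from 0.056 to 0.097) and on median-centred arrays (0.069).

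KLF5, a factor of proliferating epithelium and smooth muscle, had signals of 120, 93.6, 119 and 85.1 in untreated glands, 174, 110, 94.1 and 148 on hCG day 10, 142, 169, 116 and 237 on day 12, 204, 159, 160 and 139 on day 15, and 223, 156, 160 and 225 on day 18. Glands of days 15 and 18 lay above all untreated ones. KLF5 rose 1.71-fold by day 18 (0.77 ± 0.21, adjusted p = 0.039), with 0.67 ± 0.30 from its second probe set (adjusted p = 0.29). Leaving out any 1 of the 4 untreated arrays, or hCG day 18 replicate 1 or 4, took the adjusted p to between 0.053 and 0.12, and leaving out the 3 arrays apart to 0.12. KLF10, another TGF-beta-induced early gene, had means of 1328, 978, 1063, 1119 and 1160. The KLF10 arrays of hCG day 10 (803 to 1132) lay narrowly below the untreated ones (1144 to 1507), a difference of -0.44 ± 0.13 that did not pass (adjusted p = 0.15). KLF6 had means of 1632, 1420, 1112, 1651 and 1663 and did not pass either. As a family the KLF genes were split on day 10 (5 above and 10 below 0, median -0.07), and on day 18 there were 11 above and 4 below 0 (median 0.14). On median-centred arrays the day 10 split turned to 8 above and 7 below.

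**Figure D3:**
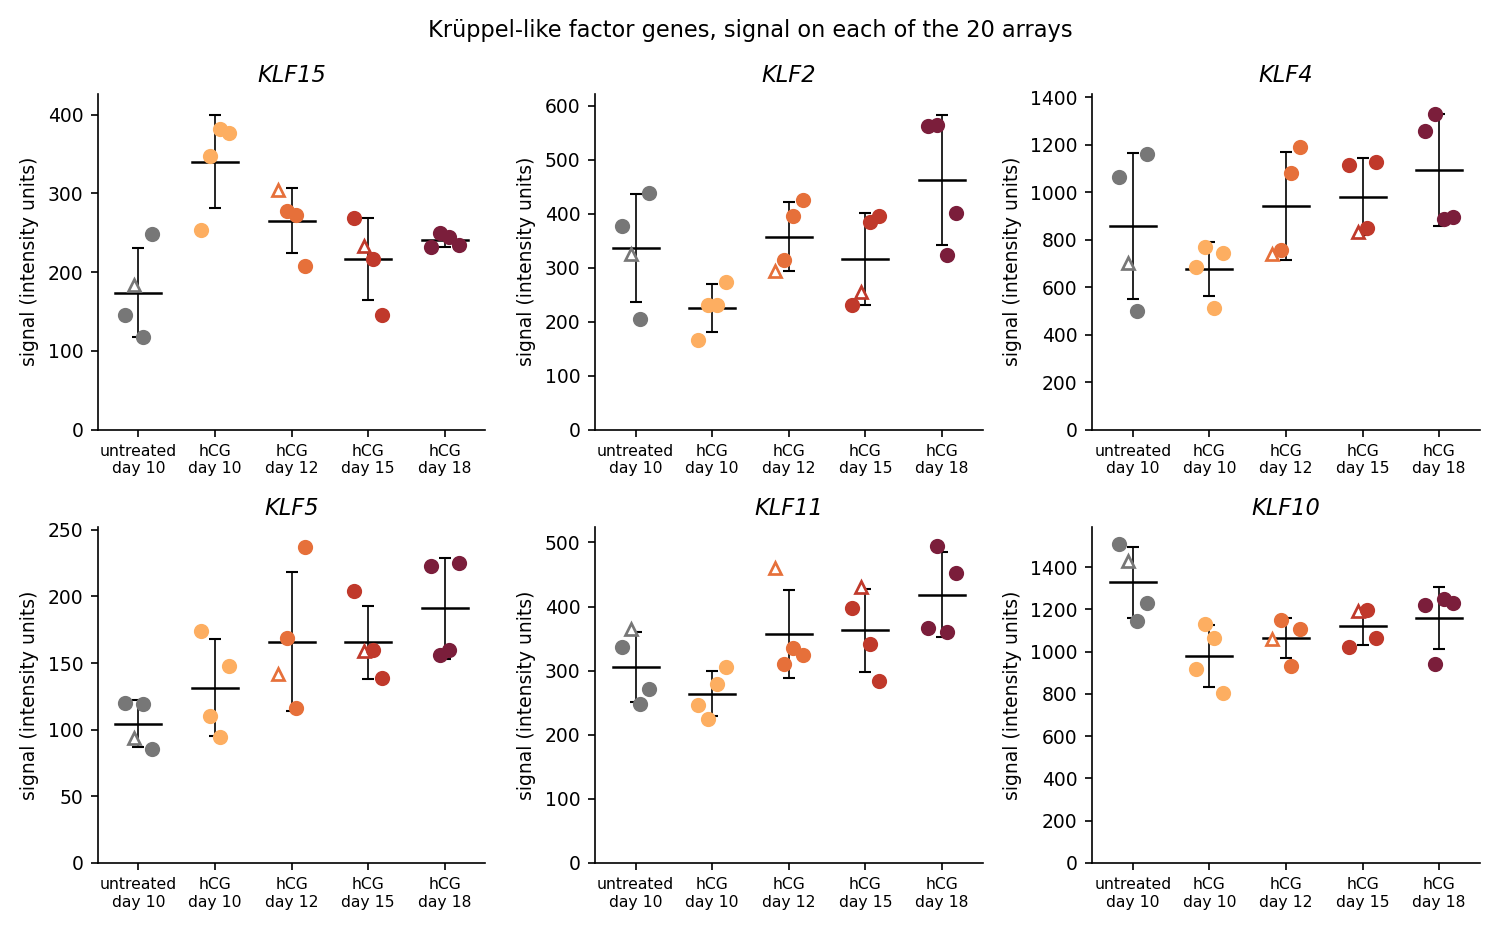
Signal (intensity units, linear axis from 0) of KLF15, KLF2, KLF4, KLF5, KLF11 and KLF10 on each of the 20 arrays, with group means as horizontal bars, SD over 4 arrays as vertical bars and open triangles for the 3 arrays apart on principal component 3. KLF15 is highest on hCG day 10, where KLF2, KLF4, KLF11 and KLF10 have their lowest means.

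Among the 7 MAP kinase phosphatase genes, DUSP16 was higher on hCG days 10, 12 and 15, DUSP10 was lower on days 15 and 18, DUSP5 was lower on day 18, and DUSP8 fell between hCG days 10 and 18. DUSP16, a cytoplasmic phosphatase of JNK and p38, had calls on 3 of the 4 days against untreated. Its signals were 358, 319, 326 and 380 in untreated glands, 698, 726, 1118 and 675 on hCG day 10, 822, 541, 607 and 920 on day 12, 554, 565, 638 and 743 on day 15, and 421, 566, 513 and 437 on day 18. Every treated gland lay above every untreated one. The log2 changes were 1.15 ± 0.18, 1.00 ± 0.18, 0.82 ± 0.18 and 0.46 ± 0.18, with adjusted p of 0.0026, 0.016, 0.025 and 0.19. DUSP16 was thus 2.22-fold higher after 1 day of hCG, and from there it fell 1.62-fold to day 18 (-0.69 ± 0.18, adjusted p = 0.028). The day 10 call held in each of the 20 fits without 1 array, with changes from 0.99 to 1.23.

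The later DUSP16 calls rested on fewer arrays. Day 12 was lost without hCG day 12 replicate 1 or 4 (adjusted p = 0.056 and 0.065), day 15 without untreated replicate 1, 2 or 3 or hCG day 15 replicate 4 (0.062 to 0.11), and the fall to day 18 without hCG day 10 replicate 3 or hCG day 18 replicate 1 or 4 (0.079 to 0.11). Without the 3 arrays apart on principal component 3, DUSP16 changed by 0.89 on day 12 and 0.83 on day 15 with adjusted p of 0.13 and 0.11. Its other probe sets, dimmer at medians of 97.6 and 70.7, gave 0.87 ± 0.39 and 0.66 ± 0.36 on day 10, 0.06 ± 0.39 and 0.31 ± 0.36 on day 12, and 0.36 ± 0.39 and 0.31 ± 0.36 on day 15, and did not pass. The mean over all 3 probe sets ended every DUSP16 call, with 0.89, 0.46 and 0.50 on days 10, 12 and 15 (adjusted p = 0.069, 0.49 and 0.34) and -0.58 from hCG day 10 to 18 (0.16).

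DUSP8, a phosphatase of JNK and p38, had the smallest adjusted p of the members in the test across the 5 groups. Its signals were 88.4, 75.9, 86 and 95.2 in untreated glands, 110, 140, 119 and 134 on hCG day 10, 81.2, 95.4, 94 and 73.1 on day 12, 39.1, 56, 69.5 and 62.8 on day 15, and 60.2, 66.1, 54.2 and 41.3 on day 18. Day 10 lay above all other groups, days 15 and 18 lay below them, and day 12 overlapped with untreated. From hCG day 10 to day 18 DUSP8 fell 2-fold (log2 change -1.0 ± 0.14, adjusted p = 2.9e-04), a call that held without each array in turn. Against untreated the values were 0.47 ± 0.14, -0.01 ± 0.14, -0.51 ± 0.14 and -0.53 ± 0.14, of which only day 18 passed, at an adjusted p of 0.045. That call was lost in 15 of the 20 fits without 1 array (adjusted p up to 0.15) and kept without hCG day 12 replicate 3 or 4, hCG day 15 replicate 1 or 3, or hCG day 18 replicate 2. Without the 3 arrays apart its adjusted p was 0.074, and on median-centred arrays 0.12. The steps from day 10 to 12 (-0.48 ± 0.14, adjusted p = 0.21) and from 12 to 15 (-0.50 ± 0.14, adjusted p = 0.69) were alike in size, each without overlap, and neither passed alone.

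DUSP10, a phosphatase of p38 and JNK, had signals of 177, 248, 177 and 231 in untreated glands, 137, 125, 164 and 140 on hCG day 10, 128, 162, 122 and 117 on day 12, 95.6, 126, 110 and 114 on day 15, and 148, 122, 127 and 95.8 on day 18. No treated gland reached the lowest untreated value. The changes were -0.50 ± 0.15, -0.59 ± 0.15, -0.81 ± 0.15 and -0.68 ± 0.15, with adjusted p of 0.13, 0.1, 0.0069 and 0.0097. DUSP10 therefore fell 1.75-fold by day 15 and 1.61-fold by day 18, and both calls held without each array in turn. The second probe set gave -0.65 ± 0.21 on day 15 (adjusted p = 0.16) and -0.96 ± 0.21 on day 18 (0.011). A fit of the compared arrays alone left adjusted p of 0.06 and 0.059. The day 12 difference passed without hCG day 12 replicate 2 (adjusted p = 0.049).

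DUSP5, a nuclear phosphatase specific for ERK and a target gene of ERK signalling, had the largest change of all members. Its signals were 515, 1679, 535 and 386 in untreated glands, 204, 96.4, 54 and 423 on hCG day 10, 700, 344, 25.8 and 99.5 on day 12, 216, 469, 204 and 32.4 on day 15, and 72.8, 45, 18.2 and 119 on day 18. The day 18 glands lay wholly below the untreated ones, while 1 or more glands of each other treated group overlapped with them. The changes were -2.01 ± 0.81, -1.83 ± 0.81, -1.85 ± 0.81 and -3.24 ± 0.81 with adjusted p of 0.31, 0.43, 0.37 and 0.028. On day 18 the level was 9.45-fold lower (95% interval of the log2 change -4.94 to -1.54). The spread of DUSP5 within groups, a residual SD of 1.27 on the log2 scale, was the widest of the 55 members.

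The direction of the day 18 difference of DUSP5 was the same without each array in turn, and its call was not. Without untreated replicate 2, the gland at 1679, the change was -2.79 (adjusted p = 0.098). Without untreated replicate 1 or 3, or hCG day 18 replicate 1, 2 or 3, the adjusted p was 0.052, 0.057, 0.051, 0.071 and 0.092. Without the 3 arrays apart on principal component 3 it was -2.79 with an adjusted p of 0.056. No second probe set for DUSP5 was found by the rule.

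DUSP1, the phosphatase gene most readily induced by stress and growth factors, was bright throughout, with means of 6201, 6857, 5501, 5618 and 5249. Its changes against untreated lay between -0.22 and 0.15 (SE 0.19) and none passed, the day 18 interval being -0.62 to 0.17. DUSP4, a nuclear phosphatase of ERK and JNK, had means of 37.4, 34.1, 28.8, 23.3 and 28.9, with a largest change of -0.45 ± 0.20 on day 15 (adjusted p = 0.39). DUSP7, which acts on ERK in the cytoplasm, did not pass on any day. On day 15 DUSP16 was above 0 and the other 6 below, and on day 10 3 lay above and 4 below, which median-centring turned to 4 above and 3 below. On day 18, 6 of the 7 lay below 0 (median -0.25 against -0.03 over all probe sets), also on median-centred and quantile-normalised arrays. With the deposited scaling 3 of the 7 passed, where 3.90% of all probe sets did. Of these, DUSP8 did not pass on median-centred (adjusted p = 0.12) or quantile-normalised arrays (0.084).

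**Figure D4:**
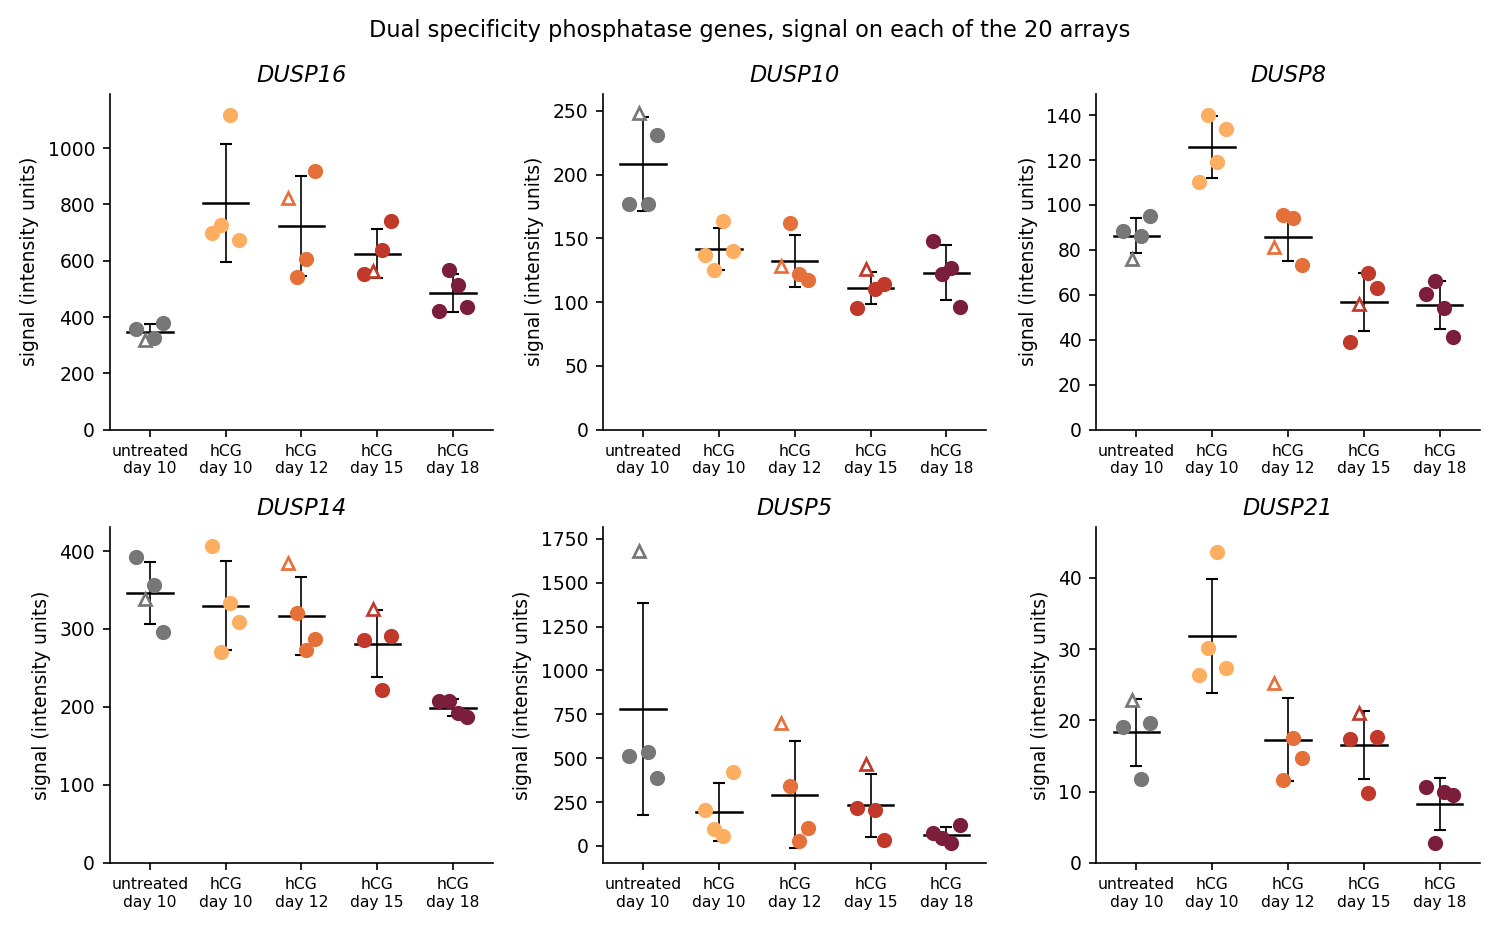
Signal (intensity units, linear axis) of 6 dual specificity phosphatase genes on each of the 20 arrays, with group means as horizontal bars, SD over 4 arrays as vertical bars and open triangles for the 3 arrays apart on principal component 3. DUSP16 lies above untreated in every treated gland, DUSP8 and DUSP21 have their highest means on hCG day 10, and DUSP14 drops on day 18. In DUSP5 the triangle at 1679 is untreated replicate 2.

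Of the 13 other dual specificity phosphatase genes, DUSP14 and DUSP21 passed. DUSP14 encodes a small phosphatase known from T cell signalling. Its signals were 393, 339, 357 and 296 in untreated glands, 407, 271, 333 and 309 on hCG day 10, 385, 320, 273 and 287 on day 12, 286, 326, 222 and 291 on day 15, and 208, 208, 192 and 187 on day 18. The day 18 values lay below every other array and close to each other (mean 199 ± 10.7, SD, n = 4). DUSP14 fell 1.68-fold against untreated (-0.75 ± 0.14, adjusted p = 0.0043) and 1.6-fold against hCG day 10 (-0.68 ± 0.14, adjusted p = 0.0076), and both calls held under each alternative tried except a minimum change of 2-fold. The step from day 15 to day 18, -0.46 ± 0.14 and without overlap, did not pass (adjusted p = 0.49).

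DUSP21, known mainly from testis, was dim here, with signals of 19, 22.9, 11.8 and 19.6 in untreated glands, 26.3, 30.1, 43.7 and 27.4 on hCG day 10, 25.2, 11.6, 17.5 and 14.7 on day 12, 17.4, 21.1, 9.86 and 17.7 on day 15, and 10.7, 2.76, 10 and 9.47 on day 18. Every hCG day 10 array lay above every other array, and the day 18 arrays were below all untreated ones. Between these days it fell 1.98-fold (-0.98 ± 0.16, adjusted p = 0.0011) on the scale of log2 of signal + 16, which understates changes at such levels. Signals near 16 are close to the background of the array, and the data hold no detection calls. The remaining 11 genes of this class did not pass, and 2 of them, DUSP13B and DUSP29, were under 16 on average in every group.

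The genes of the pathway around the members were taken from lists. Of all probe sets, 0.288%, 1.29% and 3.90% passed on days 12, 15 and 18 against untreated. Of single probe sets per named gene, 6.09% passed on day 18. Of 30 measured MAP kinase cascade genes (42 listed), 1 passed on each of days 12, 15 and 18. It was MAPKAPK2 each time, the kinase downstream of p38, which was higher, with changes of 1.00 ± 0.18, 0.79 ± 0.18 and 0.66 ± 0.18 (adjusted p = 0.017, 0.034 and 0.049). Its signals were 723, 755, 935 and 881 in untreated glands and 1598, 1231, 2254 and 1700 on day 12. The median of the cascade list stayed between 0.01 and 0.04 on the 4 days.

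Of 20 measured feedback inhibitors of growth factor signalling (25 listed), 1 rose and 4 fell on day 18, with a median of -0.21 against -0.03 over all probe sets. On that day 3.90% of all probe sets passed (1.87% higher, 2.02% lower). RGS16, which shuts off G proteins, fell by 1.00 ± 0.14 (adjusted p = 0.00028), after a day 15 change of -0.67 ± 0.14 (0.019). SPRY4, a Sprouty inhibitor that growth factor signals induce, fell by 0.92 ± 0.25 on day 18 (adjusted p = 0.041). SPRY2, of the same family, did not pass on day 18 against untreated. It fell on day 10 by 0.68 ± 0.12 (adjusted p = 0.0091) and rose from hCG day 10 to day 18 by 0.64 ± 0.12 (adjusted p = 0.004). PTPN6, a tyrosine phosphatase of blood cells, was the one that rose (1.24 ± 0.31, adjusted p = 0.028).

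Of 38 measured early response genes outside the rule (46 listed), 1 rose and 1 fell on day 10, and 0 rose and 2 fell on day 12. On day 15, 1 rose and 3 fell, and on day 18, 3 rose and 3 fell. On these days 0.954%, 0.288%, 1.29% and 3.90% of all probe sets passed. GADD45B, a stress-induced partner of MAP kinase kinase kinases, rose by 1.38 ± 0.16 on day 10 (adjusted p = 0.00032). Its signals were 381, 297, 258 and 260 in untreated glands and 678, 668, 879 and 1000 on hCG day 10, and they were 354, 376, 336 and 318 on day 12. No hCG day 10 array overlapped with either group. AREG, a ligand of the EGF receptor upstream of ERK, fell by 3.80 ± 0.45 on day 18 (adjusted p = 6.1e-05), from 9134, 6367, 7603 and 9356 to 1053, 749, 357 and 343. AREG had already passed on day 15 (-3.04 ± 0.45, adjusted p = 0.0018). On day 18 SGK1 was higher (0.81 ± 0.14, adjusted p = 0.0016) and ID4 lower (-1.11 ± 0.19, adjusted p = 0.0016). SGK1 had passed on day 15 too (0.74 ± 0.14, adjusted p = 0.0081). ID4 had passed on days 12 and 15 (-1.08 ± 0.19 and -1.09 ± 0.19, adjusted p = 0.013 and 0.0054). Of 26 measured inducers and partners of the members (32 listed), 1 passed on day 18, JDP2, an AP-1 repressor that was higher by 0.52 ± 0.14 (adjusted p = 0.046). The median of that list was -0.10. From hCG day 10 to day 18, its MEF2C was higher (0.57 ± 0.15, adjusted p = 0.027) and its CRTC1 lower (-0.63 ± 0.16, adjusted p = 0.021).

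Other signals moved on the same days. On day 10, where 0.954% of all probe sets passed, 1 of 6 measured heat shock genes rose, DNAJB1 by 0.74 ± 0.13 (adjusted p = 0.0081). The summed signal of the 6 was 13597 to 15557 against 12342 to 13339 in untreated glands. Their part in the day 10 calls of DUSP16 and KLF15 was not tested. On day 18, 10 of 11 measured macrophage and monocyte genes lay above 0 (median 0.79), and CSF1R passed against untreated. Against hCG day 10, 7 of the 11 passed, all higher, where 5.21% of all probe sets passed. The summed signal of the 11 was 10796 to 22784 on day 18, 5829 to 8061 on hCG day 10 and 5004 to 12174 in untreated glands. CSF1R (212 to 882) and CD68 (394 to 1130) were measured on every array. The 12 endothelial markers had a median of -0.15 on day 18 against untreated and 0.00 against hCG day 10, and summed to 9848 to 11779 on day 18, 8696 to 11767 on hCG day 10 and 10074 to 11412 in untreated glands. Of 6 measured T and NK lymphocyte genes, 5 lay above 0 on day 18 against untreated (median 0.62) and GZMA passed (0.91 ± 0.19, adjusted p = 0.01). Their mean log2 level was 8.34 to 8.78 on day 18, 7.88 to 8.25 on hCG day 10 and 7.84 to 8.16 in untreated glands. Their summed signal overlapped, with 11769 to 14830 on day 18, 9610 to 13018 on hCG day 10 and 4754 to 11940 untreated. All 5 measured B and plasma cell genes lay above 0 (median 0.17) and JCHAIN passed (1.17 ± 0.30, adjusted p = 0.032). Their summed signal was dim, with 111 to 174 on day 18, 48.8 to 117 on hCG day 10 and 62.4 to 90.2 in untreated glands. Of 9 luteal cell genes, CYP17A1 was higher (2.20 ± 0.34) and HSD3B2 and FDXR were lower (-1.83 ± 0.21 and -0.75 ± 0.19) on day 18, with a list median of 0.02. The medians of the neutrophil, fibroblast and smooth muscle lists on day 18 against untreated were 0.06, -0.46 and 0.02. Of the fibroblast genes 3 lay above and 4 below 0. The 2 measured red blood cell genes lay above 0 (median 0.61), and 0 passed. Their summed signal was 172 to 395 on day 18, 135 to 189 on hCG day 10 and 112 to 157 in untreated glands. Against hCG day 10, the neutrophil gene S100A8 passed (2.75 ± 0.74, adjusted p = 0.036). The summed neutrophil signal was 120 to 1718 on day 18, 72.8 to 164 on hCG day 10 and 86.1 to 277 in untreated glands. The part of these cells in the day 18 values of KLF2, KLF5, KLF11, NR4A1, IER2 and the phosphatase genes was not tested.

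The remaining 29 members gave no call. Over the 8 comparisons their log2 changes lay between -0.56 and 0.51, and the smallest adjusted p was 0.07. These values are of the 1 probe set used per gene. Another ATF7IP probe set, named here after its values were seen, was lower on day 18 against untreated (-0.66 ± 0.15, adjusted p = 0.015) and against hCG day 10 (-0.60 ± 0.15, 0.023), where the one used gave -0.54 ± 0.18 (0.12) and -0.56 ± 0.18 (0.087). Its remaining probe set gave -0.14 ± 0.17 and -0.00 ± 0.17. Counting genes whose arrays did not overlap, 11 of 55 members (20%) separated on day 10 from untreated and 12 (21.8%) on day 18, where 7.96% and 11.2% of all probe sets did. On days 12 and 15 there were 5 each (9.09%), against 5.70% and 7.20%. Between hCG groups the share of all probe sets without overlap is not given here. Separations such as those of EGR2, FOSL2, KLF4, DUSP8 and DUSP14 between hCG groups therefore stand without a background share. Single probe sets per named gene were not counted this way. In the test across groups they passed more often than all probe sets (7.01% against 4.52%).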

How the data were processed

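RNA of 20 macaque corpora lutea was hybridised to rhesus macaque Affymetrix arrays, 1 array per gland. The deposited values are linear intensities made by the authors with GCOS, per the submitters' processing notes, whose version and target level are not given in the sources used here. Of 52865 probe sets, 158 control probe sets were left out. Values were taken as log2(intensity + 16), which understates changes of dim probe sets. The 5 group means were estimated together from the 20 arrays in limma 3.58.1 under R 4.3.3 (lmFit, eBayes), with Benjamini-Hochberg adjustment over 52707 probe sets and a threshold of 0.05. The fit was also run on simulated arrays with normal noise and changes in the brighter probe sets only. That setting is unlike dim members and single outlying arrays, and its outcome is not given here. ± is the SE of a log2 change, or the SD where stated. Named are the members past the threshold and 19 named whatever their values. Of each other gene list up to 4 past the threshold are named, not always those with the smallest adjusted F p. The members and lists were chosen with earlier results of these data known. Separate animals are not named in the labels, so p-values measure the spread between these samples. With 4 arrays per group their number limits the precision. The deviations of same-numbered arrays from their group means correlated from -0.28 to 0.36 over 40 pairs, without different-number pairs beside them. Alternatives were normalization, centring, pseudocount, filter, samples in the fit, variance trend, array weights, replicate block, probe set choice, a minimum fold and leaving out arrays. Figures were drawn with matplotlib 3.10.9. No promoter or protein sequences were used here.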

Additional observations from a re-analysis of the deposited data

Results flagged for a closer look

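In 10 of 130 groups of 4 arrays, 1 array lay far from the other 3 by Dixon's test at its 95% critical value, which chance alone gives in about 1 in 20 groups. DUSP5 was at 1679 in untreated replicate 2 and at 386 to 535 in the other 3. FOS was at 834 in hCG day 15 replicate 1 and at 87.5 to 105 in the other 3, and at 93.3 in hCG day 12 replicate 3 against 129 to 136. DUSP1 was at 7857 in hCG day 15 replicate 1 against 4597 to 5097. DUSP16 was at 1118 in hCG day 10 replicate 3 against 675 to 726. DUSP21 was at 2.76 in hCG day 18 replicate 2 against 9.47 to 10.7. FOSL2 was at 661 in the same array against 443 to 472, and KLF10 was at 941 there against 1219 to 1251. KLF11 was at 460 in hCG day 12 replicate 1 against 310 to 335, and KLF6 was at 1882 there against 797 to 909.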

How the results depend on the processing

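No change past the threshold reversed its direction under the alternatives run. Among all 55 members, called or not, 13, 13, 10 and 6 had a sign on days 10, 12, 15 and 18 against untreated that differed between the deposited scaling, median-centring and quantile normalization. The count in the test across groups (5) was 8 with array weights. On day 10 (2 members) it was 1 with a pseudocount of 1, in a fit of the compared groups alone, with a minimum change of 2-fold and without the 3 arrays apart on principal component 3 (chosen after seeing the data), and 0 when the probe sets of each gene were averaged. On day 12 (1) it was 0 in the fit alone, with the mean over probe sets and without the 3 arrays. On day 15 (2) it was 1 with pseudocount 1, in the fit alone, with the mean over probe sets and without the 3 arrays, and 0 with the 2-fold minimum. On day 18 (7) it was 3 with pseudocount 1 and in the fit alone, 2 with the 2-fold minimum and 4 without the 3 arrays. From hCG day 10 to 18 (6) it was 0 with the 2-fold minimum. With 1 array left out the counts were 4 to 7 across groups, 1 to 3 on day 10, 0 to 2 on day 12, 1 to 2 on day 15, 3 to 7 on day 18, 0 to 0 in each step and 4 to 7 from hCG day 10 to 18. The replicate block left 1 member on day 10 (KLF15 lost, adjusted p = 0.056). With the block on day 18 the count was 7, with DUSP8 lost (0.06) and ATF3 gained (0.036), and it changed no other member's call. Of 40 same-number correlations 14 were over 0.1, and 7 of 20 arrays correlated best with their own number. Whether the numbers pair the samples was not tested against different-number correlations. Over all probe sets and all alternatives, the 2381 across groups ranged from 1488 with pseudocount 1 to 2908. The 503 of day 10 ranged from 172 in the fit alone to 664, the 152 of day 12 from 7 in that fit to 290, and the 681 of day 15 from 230 in it to 820. With the 2-fold minimum the 2054 of day 18 became 845 (highest elsewhere 2731) and the 2744 from hCG day 10 to 18 became 973 (highest elsewhere 3226). The share of calls that were higher moved with median-centring from 68.2% to 86.1% on day 10, 54.6% to 73.9% on day 12, 47.9% to 64.7% on day 15 and 43.3% to 30.3% from hCG day 10 to 18. The causes were not tested. Dim members such as DUSP21 have no detection calls here.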
